A study of Homo sapiens with 14 samples.

Results

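The expression of 10 NF-kappaB pathway genes was followed through 2 ways of lowering CALCRL, which encodes the calcitonin receptor-like receptor, in teloHAEC, a line of human aortic endothelial cells immortalised with telomerase. The genes were taken by name: the subunit genes NFKB1, NFKB2, RELA and RELB, the feedback genes NFKBIA, TNFAIP3 and BIRC3, and the adhesion genes ICAM1, VCAM1 and SELE. Of these 10, 9 were listed in the authors' deposited table for siRNA and 7 in both tables, out of 12202 genes listed in either. BIRC3 and SELE had a row in the siRNA table only, and the expression of VCAM1 was not analysed here.

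The 14 RNA libraries fell into 4 groups. For the siRNA arm, cells were reverse transfected with CALCRL siRNA (4 libraries) or scrambled siRNA (4 libraries) and lysed 24 hours later. For the deletion arm, Cas9 was electroporated together with guides on either side of a CALCRL enhancer (3 libraries) or with a positive control guide against HPRT (3 libraries), and RNA was taken 2 days later. Both arms used the same line, and the arms share no library. Per the labels' protocols, cells were harvested in bulk with no selection step described, so edited and unedited cells were measured together. No inflammatory stimulus was named in the labels for any group. Nothing in the labels said whether libraries came from separate cultures, so the p-values measure the spread between these libraries.

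NF-kappaB is a family of dimeric transcription factors built from RELA, RELB, REL, p50 (from NFKB1) and p52 (from NFKB2). In resting cells the inhibitor IkappaBalpha, the product of NFKBIA, holds RELA dimers in the cytoplasm, and kinases that respond to TNF or interleukin-1 mark the inhibitor for destruction. In endothelium the released factor switches on adhesion genes that let leukocytes stop and cross the vessel wall, and at the same time NFKBIA and TNFAIP3, which shut the signal off.

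The consensus sequence of NF-kappaB is short, and stretches that match it are shown here because the feedback and adhesion genes were chosen as its targets. The search used the NF-kappaB consensus on both strands of the RefSeq promoter windows (GRCh38.p14), which run from 250 bases before to 50 after each transcription start. Windows were matched for 9 of the 10 members, all but RELB, with 13 starts in total. The consensus was found in 8 of those 13 windows and in 5.91% of all 35116 windows. Each line gives the stretch around 1 match, 5′ to 3′ on the gene's strand, with the match in capitals:
NFKB1: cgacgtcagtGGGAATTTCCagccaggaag
NFKB2: aaacgtcatGGGAATTCCCCcctccggggg
NFKBIA: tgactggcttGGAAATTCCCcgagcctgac
TNFAIP3: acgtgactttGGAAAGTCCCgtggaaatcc
BIRC3: tttgggtcatGGAAATCCCCgagtgggttt
VCAM1: tccccttgaaGGGATTTCCCtccgcctctg
SELE: ggatgccattGGGGATTTCCtctttactgg

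In NFKBIA, TNFAIP3 and BIRC3 the consensus reads on the opposite strand, in NFKB1 and SELE on the gene's own strand, and in VCAM1 on both. The NFKB2 stretch holds overlapping matches on both strands. These stretches lie at chr4:102501300-102501329 (plus strand, NFKB1), chr10:102394462-102394491 (plus, NFKB2), chr14:35404811-35404840 (minus, NFKBIA) and chr6:137867182-137867211 (plus, TNFAIP3). The others lie at chr11:102317275-102317304 (plus, BIRC3), chr1:100719670-100719699 (plus, VCAM1) and chr1:169734154-169734183 (minus, SELE). A narrower form, GGGANTTTCC, was found near NFKB1, NFKB2, NFKBIA and TNFAIP3 and in 0.558% of all windows. This form is contained in the consensus. For NFKB2 it lies 21 to 12 bases before another start, at chr10:102395674-102395703 (plus), and not in the stretch printed above. No match was found in the windows of RELA and ICAM1, which says only that these letters are absent there. A match is a description of sequence and not evidence of binding in these cells.

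**Figure D1:**
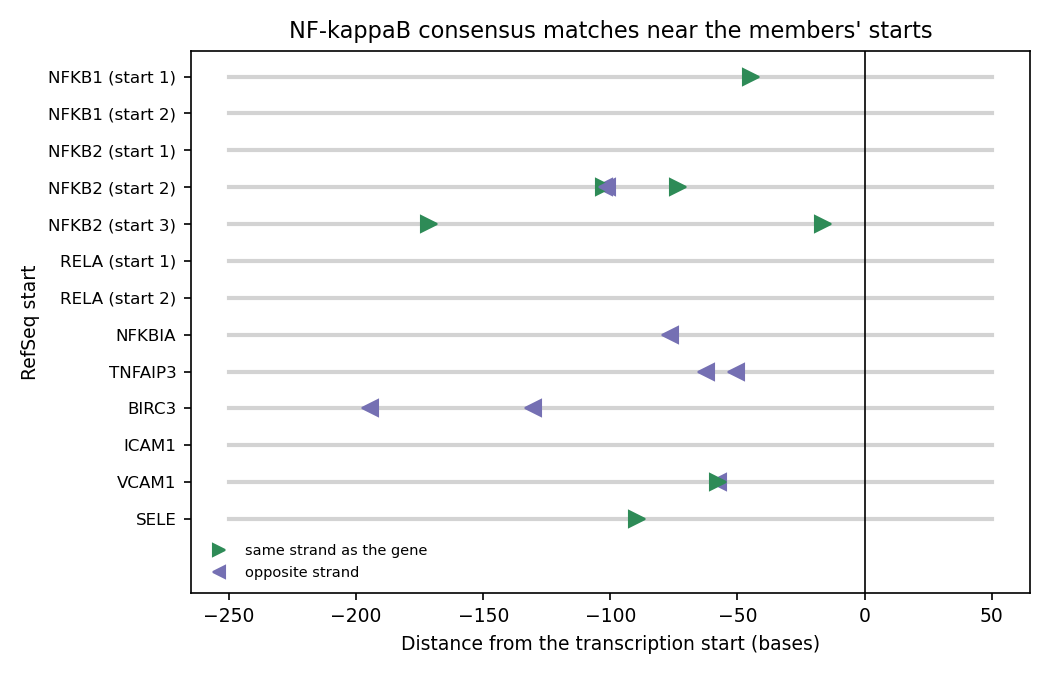
Positions of NF-kappaB consensus matches in the 13 RefSeq promoter windows of 9 members, in bases from the transcription start on the x axis, with 1 row per start. Triangles mark matches on the gene's own strand or the opposite one, and triangles overlap where both strands match; 8 of 13 windows hold at least 1 match.

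Depth per library was not given in the files, which hold 1 mean normalised count, log2 fold change, standard error (SE) and p-value per gene and arm. Each group mean given here is therefore an implied one, worked out from a gene's overall mean and its fold change, and values for single libraries, their spread and their overlap could not be shown. The median SE of the log2 fold change was 0.17 for siRNA and 0.41 for deletion, so the deletion arm was the less precise. CALCRL itself was at 34.0% of control under siRNA (95% interval 27.1% to 42.7%) and at 36.2% after deletion (20.2% to 64.7%), with adjusted p-values of 1.9e-17 and 0.00962 in the authors' deposited tables (DESeq2 Wald test). Of 10 endothelial markers, 9 were listed in both tables, among them CDH5, TIE1 and ERG, and PECAM1 was not analysed here. Of 7 leukocyte markers, 1 (CD68) was listed in either table.

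The first comparison asked how these genes differed between CALCRL siRNA and scrambled siRNA. One member changed: BIRC3, the gene of the ubiquitin ligase cIAP2, which acts below TNF receptors and is itself a target of NF-kappaB, fell to 56.8% of the scrambled control (95% interval 49.4% to 65.3%). The 4 subunit genes, the inhibitor gene NFKBIA and the adhesion gene ICAM1 did not pass the threshold, an adjusted p-value under 0.05 over all genes listed. The count was 1 of 9 members, against 3.46% of the 11261 genes tested (1.05% higher, 2.42% lower). At an unadjusted p-value under 0.05 it was also 1, against 12% of genes. At the adjusted share 0.312 of 9 would be called, so a count of 1 rests on BIRC3 alone.

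BIRC3 had an implied mean of 379 normalised counts under scrambled siRNA and 215 under CALCRL siRNA. Its log2 fold change was -0.82 in the authors' deposited table (SE 0.10), with an adjusted p-value of 9.15e-13 (DESeq2). In bulk libraries fewer cells of a type and less RNA per cell cannot be told apart. Only 18 of the 11261 genes, BIRC3 included, had a Wald statistic as low. When its statistic was read against Student's t (6 degrees of freedom) instead of the normal distribution, the adjusted p-value of BIRC3 was 0.113, and over 6 alternatives it ranged from 6.95e-13 to 0.113. BIRC3 lies on the plus strand of chromosome 11 from 102317450 to 102339403 (GRCh38, GENCODE 29), next to its paralog BIRC2, and no annotated gene overlaps it.

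The word GTAACAA, which is frequent in 3′ UTRs of genes lower under this siRNA, was searched in the members. Among genes whose 3′ UTR is annotated, 150 of the 266 lower ones held it (56.4%), as did 10.7% of all 10639. None of the 10 members carried it, BIRC3 included. A second word searched, GACGTA, was in 3.76% of the lower genes and 5.35% of all, and among the members in TNFAIP3 only. The 6-base parts of GTAACAA were added after these values were seen. In BIRC3 the first part, GTAACA (30.2% of all genes), occurred at base 127 of a 3′ UTR of 2301 bases, and the second, TAACAA (36.1% of all genes), occurred at bases 1278, 1293 and 1309. These stretches from the GENCODE 29 transcript are shown because BIRC3 alone changed, with the part in capitals:
BIRC3 base 127: attgttttgtGTAACAtatttatata
BIRC3 base 1278: gacaatcctaTAACAAaagacaggtt
Of the lower genes 70.3% held GTAACA and 74.4% held TAACAA. Both shares include the 56.4% with the whole word, which contains both parts and which BIRC3 lacks. Shares among genes without the whole word were not counted. NFKBIA also carried GTAACA and SELE carried TAACAA, and neither passed the threshold under siRNA. Among the pathway genes described further on, the 3 called lower under siRNA each carried a part: BIRC2 GTAACA, MAP3K7 TAACAA and PTGS2 both. Of those called higher, JAM3 carried both parts, and CXCL1 and CSF3 carried neither. The share of genes holding either part was not counted, so these called genes have no matching share beside them. Of the 73 pathway genes with an annotated 3′ UTR, 28.8% held GTAACA and 34.2% held TAACAA. The whole word GTAACAA was in 7 of these genes, none of them called under siRNA. Whether these letters had a part in the BIRC3 value was not tested.

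For the subunits under siRNA, the implied levels of treated and control groups lay close together. NFKB1, the precursor gene of p50, was at 95.3% of control (95% interval 78.4% to 116%). NFKB2, the precursor gene of p52, was at 107% (87.6% to 131%). RELA, which carries the main activation domain of the classical pathway, was at 95.8% (83.0% to 111%), and RELB, of the alternative pathway, at 95.2% (83.0% to 109%). These intervals bound a fall or rise at between 78.4% and 131% of control, and none of the 4 passed the threshold.

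The other feedback and adhesion genes gave similar values under siRNA. NFKBIA was at 111% of control (95% interval 92.7% to 133%), from implied means of 1155 and 1280 normalised counts. TNFAIP3, which encodes the ubiquitin-editing enzyme A20, was at 93.0% (76.5% to 113%). ICAM1, which encodes a ligand for leukocyte integrins, was at 108% (95.1% to 122%). SELE, which encodes E-selectin, the receptor on which leukocytes roll, had implied means of only 21.0 and 17.0 normalised counts and was at 81.0% with a wide interval of 49.6% to 132%. BIRC3 was the one member whose interval excluded 100%.

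**Figure D2:**
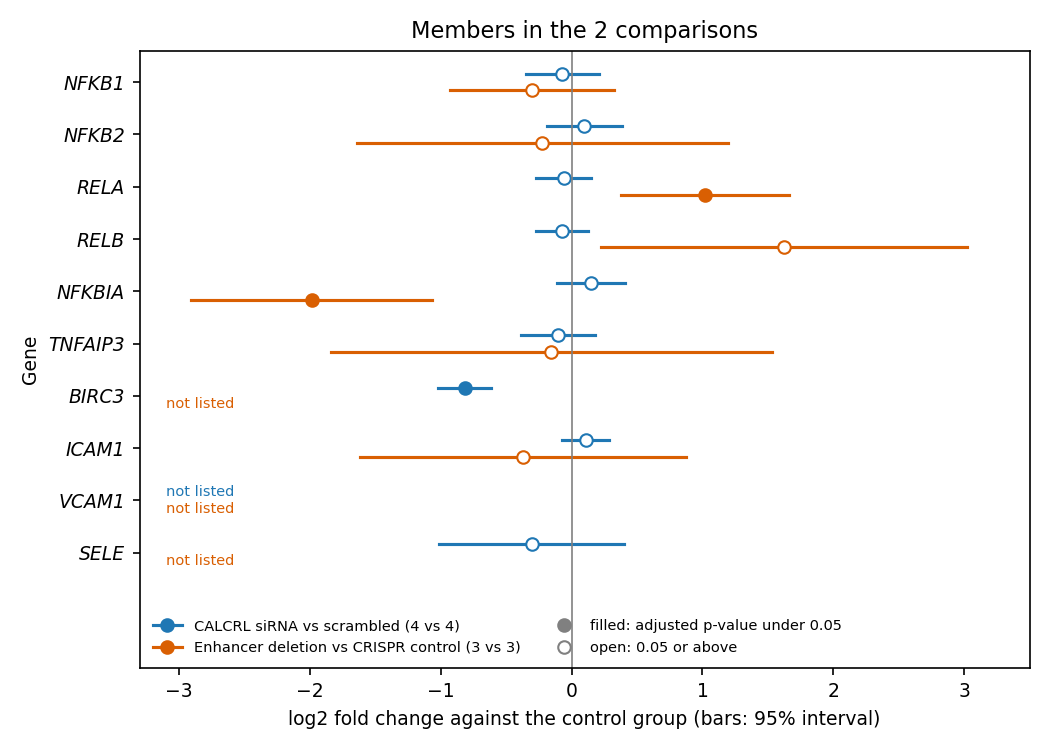
Log2 fold change against the control group (x axis) for each member (y axis) in the siRNA comparison (4 against 4 libraries) and the deletion comparison (3 against 3), with 95% intervals as bars and filled points at an adjusted p-value under 0.05. BIRC3 is the filled point of the siRNA comparison at -0.82, and RELA (1.02) and NFKBIA (-1.98) are the filled points of the deletion comparison.

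The second comparison asked what followed deletion of the enhancer. Here NFKBIA, the inhibitor gene, fell to 25.3% of the CRISPR control (95% interval 13.4% to 47.8%), while RELA, the subunit that its product holds back, rose to 202% (130% to 316%). RELB had an estimate further from control than RELA, at 308% (117% to 811%), but missed the threshold. Thus 2 of 7 members were called, 1 higher and 1 lower, against 15.8% of the 11830 genes tested (7.4% higher, 8.44% lower). At an unadjusted p-value under 0.05 it was 3 of 7, against 29.7% of genes. At the adjusted share 1.11 of 7 would be called, so the count itself differs from it by less than 1 gene.

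NFKBIA had an implied mean of 589 normalised counts in the CRISPR control and 149 after deletion. The authors' deposited table gave it a log2 fold change of -1.98 (SE 0.47) and an adjusted p-value of 0.00108 (DESeq2). Its SE was 1.61 times the one usual at its mean count. By its Wald statistic NFKBIA was among the 202 lowest genes of the comparison. On chromosome 14 the gene runs from 35401511 to 35404749 (GRCh38, minus strand) and overlaps no other annotated gene.

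RELA had implied means of 445 normalised counts in the CRISPR control and 900.4 after deletion. Its log2 fold change in the authors' deposited table was 1.02 (SE 0.33, DESeq2 adjusted p-value 0.0201). On chromosome 11 RELA runs from 65653596 to 65663094 (GRCh38, minus strand), and its exons overlap a lincRNA, AP001362.2, on the opposite strand. Whether counting used the strand is not given in the sources used here, so reads of these 2 genes may not be told apart. Exons of ICAM1 (AC011511.2 and AC011511.5) and TNFAIP3 (AL357060.1) also overlap antisense genes on the opposite strand. Those of SELE overlap a lincRNA, AL021940.1, on the same strand, where use of the strand would not separate reads. The levels of these members carry the same limit.

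RELB had implied means of 25.9 normalised counts in the CRISPR control and 79.6 after deletion, with a log2 fold change of 1.62 (SE 0.71) and an adjusted p-value of 0.0999 in the authors' deposited table (DESeq2). NFKB1 was at 81.3% of control (95% interval 52.6% to 125%) and NFKB2 at 85.6% (32.1% to 229%). NFKB2 had implied means of only 24.9 and 21.3 normalised counts. Of the 4 subunit genes 1 was called, and the other 3 were not.

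The remaining listed members were poorly measured in the deletion arm. TNFAIP3 was at 89.7% of control with an interval from 27.9% to 288%, from implied means of 16.1 and 14.4 normalised counts. ICAM1 was at 77.3% (32.6% to 183%), from 48.9 and 37.8. Changes of the size seen for RELA were not detectable for either gene at this precision.

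In the deletion table GC-rich genes had higher log2 fold changes (Spearman 0.303 across 11630 genes, which are not independent replicates). The same value was 0.0741 for siRNA. The last 500 transcript bases of RELB and NFKB2 were 66.4% and 63.2% GC, above the upper quartile of 50.8%. RELA was at 51.8% and ICAM1 at 52.0%, near that quartile, and NFKBIA was at 37.4%, below the median of 42.0%. CALCRL was at 24.2%, below the lower quartile of 34.4%, and its value with the GC trend removed is not given here. With a trend on GC removed, NFKBIA stayed called at -1.80 (adjusted p-value 0.00379), and RELA was at 0.78 and no longer called (0.0936). Over 6 alternatives the adjusted p-value ranged from 0.000749 to 0.976 for NFKBIA and from 0.0189 to 0.976 for RELA. RELB was at 0.93 with the trend removed (0.415; range 0.0955 to 0.982). The other members also moved and remained uncalled: NFKB2 from -0.22 to -0.83, NFKB1 from -0.30 to -0.07, ICAM1 from -0.37 to -0.62 and TNFAIP3 from -0.16 to -0.09. The highest p-values came from dividing the statistics by their robust SD of 1.88, under which none of the 11830 genes was called and 534 had an unadjusted p-value under 0.05.

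**Figure D3:**
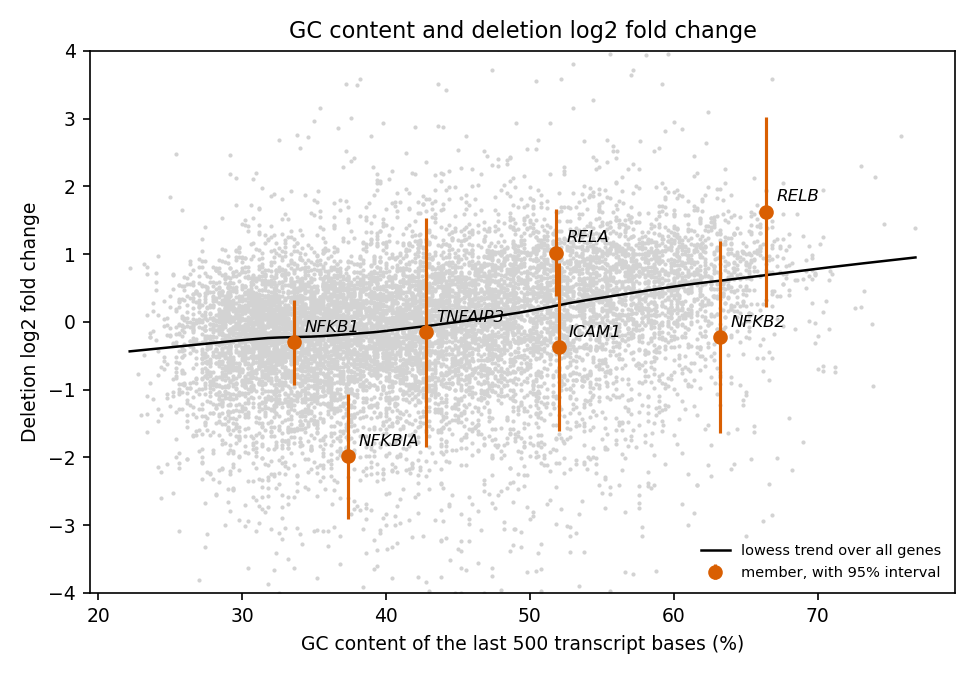
Deletion log2 fold change (y axis) against the GC content of the last 500 transcript bases in percent (x axis), with all genes as grey points, their lowess trend as a line and the 7 listed members with 95% intervals. NFKBIA lies below the trend and RELA and RELB above it; 88 genes beyond 4 in either direction are outside the plotted range.

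The third comparison set the arms against each other, gene by gene, for the 7 members listed in both. The difference of the log2 fold changes was tested as a two-sided z statistic, with p-values adjusted by Benjamini-Hochberg over 10891 genes. The members that differed were NFKBIA, which was 0.15 under siRNA and -1.98 after deletion, and RELA, which was -0.06 and 1.02. The difference was 2.13 for NFKBIA (SE 0.49, adjusted p-value 0.000861) and -1.08 for RELA (SE 0.34, adjusted p-value 0.0213). The count was 2 of 7, against 13.7% of all genes tested, which would give 0.960 of 7. At an unadjusted p-value under 0.05 it was 3 of 7, against 28.3%.

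RELB differed by -1.69 (SE 0.72, adjusted p-value 0.0931) and was not called. For NFKB1 the difference was 0.23 (95% interval -0.46 to 0.92), and for NFKB2 it was 0.32 (-1.12 to 1.77). ICAM1 differed by 0.48 (-0.78 to 1.74). TNFAIP3 differed by 0.05 (-1.66 to 1.76). With the GC trend removed the difference was 0.91 for NFKB2, 0.02 for NFKB1, -1.02 for RELB and -0.02, with its sign turned, for TNFAIP3, and none of these was called. These intervals are wide, and a difference within them was not detectable. With the GC trend removed RELA was at -0.86 and no longer called (adjusted p-value 0.0817; range over 5 alternatives 0.0205 to 0.992), and NFKBIA stayed called at 1.96 (0.00261; range 0.000621 to 0.992). The fall of BIRC3 under siRNA could not be set against the deletion, where it has no row.

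For 4 of the 7 members listed in both tables, the implied level in the control group was at least 3 times as high in the siRNA arm as in the deletion arm. The implied level of RELB was 61.6 CPM (normalised counts scaled to a common total per table) in the scrambled siRNA control and 5.02 in the CRISPR control. ICAM1 was at 90.5 and 9.49 CPM, TNFAIP3 at 28.3 and 3.12, and NFKB2 at 26.0 and 4.83. The level under scrambled siRNA was thus 12.3 times that in the CRISPR control for RELB, 9.53 times for ICAM1, 9.08 times for TNFAIP3 and 5.37 times for NFKB2. The tables were normalised separately and hold no spread for a level, so these ratios carry no error or test.

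NFKBIA was at 254 and 114 CPM in the same controls, RELA at 150 and 86.3, and NFKB1 at 90.2 and 89.2, which are ratios of 2.22, 1.73 and 1.01. A ratio of at least 3 was reached by 4 of the 7 members and by 2.66% of the 10891 genes tested in both tables, whose median ratio was 1.02. BIRC3 stood at 83.4 CPM in the scrambled control and SELE at 4.63. These controls differ in how the reagent was delivered, in the reagent and in the time to harvest, and the parts of these cannot be told apart.

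**Figure D4:**
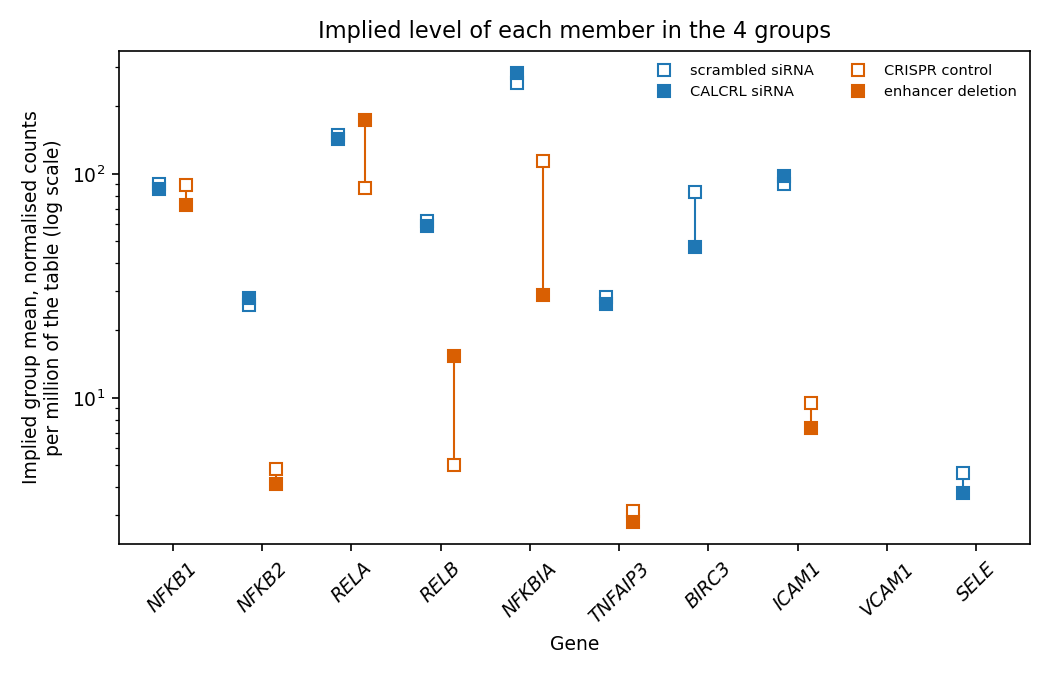
Implied mean level of each member (x axis) in the 4 groups, in CPM on a log y axis, with open squares for controls and filled squares for treated groups, joined within an arm. NFKB2, RELB, TNFAIP3 and ICAM1 sit 5.37 to 12.3 times lower in the CRISPR control than in the scrambled siRNA control, while NFKB1 sits at the same level in both.

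The wider pathway was read from 5 lists with 81 further genes, and every called gene is named. Under siRNA 6 of 73 tested genes were called, 3 higher and 3 lower, against the 3.46% of all genes. After deletion 21 of 69 were called, 10 higher and 11 lower, or 30.4% against 15.8%. With the GC trend removed the split after deletion was 5 higher and 12 lower of 68 tested, against 12.4% of all genes called at that setting. Between the arms 17 of 68 differed, against 13.7%. These shares describe the lists, which were chosen with earlier results of these data known, and were not tested. Fold values below are from the authors' deposited tables, whose calls are by DESeq2.

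Among receptors and adaptors, which carry signals from TNF, interleukin-1 and Toll-like receptors, 1 of 16 was called under siRNA and 4 of 16 after deletion. BIRC2, the paralog of BIRC3 that encodes cIAP1, was lower under siRNA at 77.0% of control (log2 fold change -0.38, SE 0.08, adjusted p-value 0.000209). After deletion BIRC2 was at -0.37 (SE 0.29), not called. After deletion IRAK1 rose to 263% of control, while MYD88, the adaptor of interleukin-1 and Toll-like receptors, fell to 13.2%, RIPK1, a kinase of the TNF receptor complex, to 40.1% and IRAK4 to 45.4%. The SE of MYD88 in the siRNA table was 2.31 times the usual one at its mean count. The median log2 fold change of the list was -0.05 under siRNA and -0.04 after deletion.

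Of the kinases, MAP3K7, which encodes TAK1, was lower under siRNA at 67.8% of control (log2 fold change -0.56, SE 0.15, adjusted p-value 0.00832), and none of the other 8 tested was called. After deletion CHUK, which encodes the kinase IKKalpha, fell to 38.0%, alone among 10 tested. With the GC trend removed CHUK was no longer called (-1.15, adjusted p-value 0.0562). The list medians were 0.00 and -0.48, beside 0.00 for all genes in either arm.

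Other subunits and inhibitors gave no call under siRNA among 13 tested, with 1 at an unadjusted p-value under 0.05, and 4 called rises after deletion. NFKBIB, which encodes IkappaBbeta, rose to 193% of control, TNIP1, a partner of A20, to 218%, and COMMD1 to 179%. NFKBID rose from an implied control mean at or under 3 counts, so only a lower end of its interval is given, 2.34-fold. With the GC trend removed none of these 4 was called: NFKBIB was at 0.72 (adjusted p-value 0.0850), TNIP1 at 0.74 (0.110), COMMD1 at 0.53 (0.227) and NFKBID at 3.51 (0.0555). So NFKBIA fell in an arm where the gene of the related inhibitor IkappaBbeta was estimated above control.

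Among other target genes, CXCL1, a neutrophil chemokine, was the 1 gene called in both arms. It rose under siRNA to 158% of control and fell after deletion to 32.3%. After deletion CXCL8, which encodes interleukin-8, fell to 21.5% and CCL2, a monocyte chemokine, to 6.38%. Neither was called under siRNA, where CXCL8 was at 121% of control (95% interval 83.1% to 176%) and CCL2 at 123% (85.5% to 177%). CXCL2 and CCL20 had a row in the siRNA table only and were not called there. The difference between the arms was 2.29 (SE 0.44) for CXCL1, 2.49 (SE 0.60) for CXCL8 and 4.27 (SE 0.77) for CCL2, with adjusted p-values of 5.27e-05, 0.0019 and 1.84e-05. In the siRNA table the SE was 2.73 times the usual one at its mean count for CXCL8, 2.53 times for CCL2 and 1.70 times for CXCL1.

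Under siRNA CSF3, the gene of a granulocyte growth factor, rose to 207% and PTGS2, the inducible cyclooxygenase gene, fell to 72.7%. PTGS2 was at -0.44 and no longer called with the GC trend removed (adjusted p-value 0.0619). After deletion IER3 rose to 181%, and PLAU, which encodes urokinase, fell to 3.11% (95% interval 0.430% to 22.5%). PLAU had SEs 7.45 and 3.79 times the usual ones at its mean count in the siRNA and deletion tables. In all 3 of 18 targets were called under siRNA and 5 of 13 after deletion, 1 higher and 4 lower. Of the 13 targets tested in both arms, 8 had a control level at least 3 times as high under scrambled siRNA as under the CRISPR control, with ratios up to 9.82 for CXCL8.

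Other adhesion and leukocyte contact genes changed in both directions after deletion, with 4 of 17 higher and 3 lower. JAM3, a junctional adhesion gene, was the 1 of 17 called under siRNA, at 124% of control. Its adjusted p-value was 0.0715 with statistics divided by their robust SD and ranged from 0.0213 to 0.520 over 6 alternatives. After deletion PODXL, which encodes a sialomucin, fell to 20.8%, CDH5, which encodes VE-cadherin, to 37.0% and F11R to 53.5%. CD99L2 rose to 311%, ITGA5 to 187%, MCAM to 174% and EZR to 169%. With the GC trend removed ITGA5 was no longer called (0.49, adjusted p-value 0.328), and with fold changes centred on the median of well counted genes neither ITGA5 (0.0503) nor EZR (0.0593) was. PODXL had a siRNA SE 3.80 times the usual one at its mean count. None of the 17 had a control level ratio of 3 or more between the arms, the highest being 2.59.

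CDH5 is also a marker of endothelial identity. With KDR (48.3% of control) it was 1 of 2 called among the 9 endothelial markers listed after deletion, both lower. Over all genes tested in that arm 15.8% were called, 8.44% as lower. Of the 9 markers 4 were estimated above control and 5 below. The summed implied level of these 9 was 1294 CPM in the CRISPR control and 922 after deletion, and 1598 and 1535 CPM in the siRNA arm. The single listed leukocyte marker, CD68, was at 1.36 and 3.43 CPM in the deletion arm and was not called. Of 8 smooth muscle and fibroblast markers 2 were listed, with summed levels of 43.1 and 39.6 CPM. Of 5 epithelial markers KRT8 and KRT18 were listed, at a summed 386 and 834 CPM, and KRT18 was called higher, while EPCAM, CDH1 and KRT5 were not listed. In the siRNA arm 1 of 9 endothelial markers was called, against 3.46% of all genes. It was EGFL7, lower at 72.6% of control (adjusted p-value 0.00213, DESeq2). The sums there were 8.87 and 9.27 for CD68, 87.0 and 92.1 for smooth muscle and fibroblast markers, and 552 and 465 for epithelial ones. The part of cell make-up in the NFKBIA and RELA values was not tested.

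**Figure D5:**
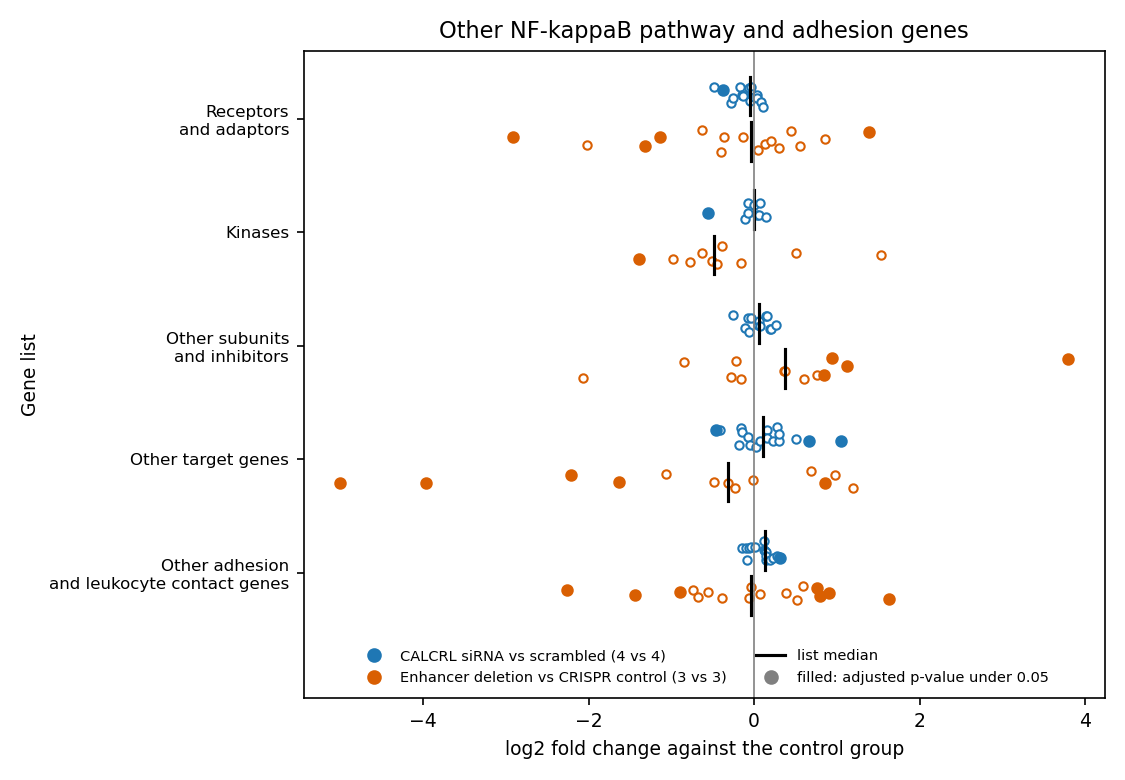
Log2 fold change against the control group (x axis) of the genes in 5 NF-kappaB pathway and adhesion lists (y axis), in the siRNA comparison and the deletion comparison, with filled points at an adjusted p-value under 0.05 and black bars at list medians. The deletion values spread further from 0 than the siRNA values in each list, with 21 of 69 and 6 of 73 genes filled. Of all genes 15.8% and 3.46% were called, and the median SE was 0.41 for deletion and 0.17 for siRNA.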

How the data were processed

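Per the file headers and titles, featureCounts gave the gene counts and DESeq2 the group comparison; the columns the authors deposited are the mean normalised count, log2 fold change, SE, Wald statistic (a score), p-value and adjusted p-value per gene. Libraries were 3′ mRNA-seq (QuantSeq FWD), per the labels' protocols. The submitters' processing notes name hg19 and edgeR 3.24.3, with no role; aligner, annotation, filters and strand setting are not given in the sources used here. Numbers carry decimal commas. Group means assume equal group sizes and the deposited fold change; where the lower was at or under 3 counts, 1 end of the interval is given. CPM are implied means over the sum of mean normalised counts in the table. Intervals are 95%, normal. GC content and 3′ UTRs came from the GENCODE 29 transcript with the longest 3′ UTR (11099 and 11630 genes); its lowess trend (span 0.3, statsmodels 0.14.6) was removed as an alternative. The usual SE at a mean count comes from a lowess fit of the same span. Tests were computed with scipy 1.17.1 and checked on simulated data. Genes were named as all members plus every called gene of the lists. Members and lists were chosen with earlier results of these data known. List symbols were matched by name or, for older names, by gene ID. Count models needing a value per library were planned only for tables with such values and not run.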

Additional observations from a re-analysis of the deposited data

Results flagged for a closer look

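Each gene here had a log2 fold change that differed between the arms by the direct test, at an adjusted p-value under 0.05 over 10891 genes. With the GC trend removed, 12 of the 44 calls of pathway genes, over both arms and their difference, were lost. Calls of differences were among them, and RELA among the members was also no longer called. Over 5 alternatives the difference ranged from -0.99 to -0.63 for TNIP1 and from -1.06 to -0.85 for NFKBIB. Among the members the siRNA minus deletion difference was -1.08 for RELA and 2.13 for NFKBIA. Among the other pathway genes it was higher under siRNA for MYD88 (2.79), IRAK4 (1.17), RIPK1 (1.15), CHUK (1.54), CXCL8 (2.49), CXCL1 (2.29), CCL2 (4.27), PLAU (5.51), F11R (1.17), PODXL (2.47) and CDH5 (1.45). It was lower under siRNA for IRAK1 (-1.36), NFKBIB (-1.06), TNIP1 (-0.99), IER3 (-0.83), CD99L2 (-1.33) and EZR (-0.85). How the reagent was delivered, the control used and the time to harvest also set the arms apart, and their parts cannot be told apart.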

How the results depend on the processing

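No paired analysis was possible because values per library are not in the 2 tables used here, and leaving out each replicate was not run for the same reason. With a Student t reference (6 or 4 degrees of freedom), 0 of 9 members and 0 of 73 pathway genes were called under siRNA (1 and 9 at an unadjusted p-value under 0.05), and 0 of 7 and 0 of 69 after deletion (2 and 19), where the DESeq2 tables call 1, 6, 2 and 21. Over all genes that reference called 5 of 11261 under siRNA and 0 of 11830 after deletion (774 and 1646 unadjusted), so these counts of 0 say nothing particular of the members or lists. Dividing statistics by their robust SD left 0 members and 0 pathway genes after deletion (1 and 9 unadjusted) and 0 and 0 for the difference between the arms (1 and 7), instead of 2 and 17, where it left 0 of all genes in either comparison (534 and 447 unadjusted). Under siRNA it left BIRC3 called and took the pathway calls from 6 to 4, without JAM3 (adjusted p-value 0.0715) and PTGS2 (0.126). Removing the GC trend left 1 member after deletion and 1 for the difference, NFKBIA in both, against 12.4% and 11.3% of all genes. That step also turned the TNFAIP3 difference to -0.0169. A minimum mean count of 10, median centring and a threshold of 0.1 kept each member's direction, and the last added RELB in the deletion and the difference. Alternatives for the lists were chosen after seeing the data. Over 131 values of the members under alternatives, 119 kept direction and side of the threshold. For genes with few counts (TNFAIP3, NFKB2 and ICAM1 after deletion, SELE under siRNA) the SE is the limit.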
